A study of Mus musculus with 10 samples.

Results

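T-box genes encode transcription factors that share a DNA-binding domain, the T-box, and 8 of them with known roles in the head, the ear region and the limbs were followed in the developing mouse outer ear: *Tbx1*, *Tbx2*, *Tbx3*, *Tbx4*, *Tbx5*, *Tbx15*, *Tbx18* and *Tbx22*. They were found by matching the Ensembl identifiers of the gene count table to these symbols, which gave 8 of its 53465 genes, and all 8 were among the 16426 genes that passed the filter on low counts. RNA was sequenced from pinna prominences, the tissue that forms the external ear, dissected at the embryonic stage E14.5 from wild-type (WT) mice and from *mEC1*dup/dup mice, with 5 libraries of each genotype on a C57BL/6J background. The *mEC1*dup/dup mice, labelled knock-in (KI), are homozygous for a CRISPR/Cas9 insertion that adds another copy of mEC1, an enhancer near the homeobox gene *Hmx1*, to each allele. The allele is germline and acts in every cell type in which mEC1 is active, and whole prominences were homogenised, so a lower level in a library can mean fewer cells of a type or less RNA per cell, which bulk RNA cannot tell apart. The libraries of each genotype came from 5 independent embryos, so the p-values measure the spread between embryos.

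T-box proteins bind short DNA elements and activate or repress transcription, several of them through the Groucho-type corepressors of the Tle family and through histone deacetylases. They fall into subfamilies that arose by gene duplication. *Tbx1*, *Tbx15*, *Tbx18* and *Tbx22* belong to the subfamily named after *Tbx1*, whose members pattern the pharyngeal apparatus, the skull and the mesenchyme around the inner ear. *Tbx2*, *Tbx3*, *Tbx4* and *Tbx5* belong to the subfamily named after *Tbx2*, which shapes limbs, heart and skin appendages. In the mouse, loss of *Tbx15* gives the droopy ear phenotype with a displaced pinna, and loss of *Tbx1* gives a reduced outer ear.

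The genes lie at 6 places on GRCm39. *Tbx15* (ENSMUSG00000027868) occupies chr3:99147697-99294185 on the plus strand, *Tbx18* (ENSMUSG00000032419) chr9:87584851-87613338 on the minus strand, *Tbx1* (ENSMUSG00000009097) chr16:18399729-18409421 on the minus strand and *Tbx22* (ENSMUSG00000031241) chrX:106711570-106732584 on the plus strand. The other 4 form linked pairs on the plus strand. *Tbx2* (ENSMUSG00000000093, chr11:85723377-85734115) ends 42772 bases before *Tbx4* (ENSMUSG00000000094, chr11:85776887-85806923), and *Tbx3* (ENSMUSG00000018604, chr5:119806298-119822797) ends 147936 bases before *Tbx5* (ENSMUSG00000018263, chr5:119970733-120023284).

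Promoter windows were shown for *Tbx18* and *Tbx1*, the subfamily members whose levels moved together between libraries, and for *Tbx22*, whose window holds the only match to the letters that HMX proteins are known to bind. RefSeq windows from 250 bases before to 50 bases after a transcription start (build GRCm38.p6) were at hand for 4 of the 8 genes, in 7 windows. *Tbx2*, *Tbx3*, *Tbx5* and *Tbx15* had no entry. The windows below run 5′ to 3′ on the strand of the gene, chr9:87731211-87731510 (minus) for *Tbx18*, chr16:18588850-18589149 (minus) for *Tbx1* and chrX:107667714-107668013 (plus) for *Tbx22*. Capitals mark a match to the HMX core.
Tbx18: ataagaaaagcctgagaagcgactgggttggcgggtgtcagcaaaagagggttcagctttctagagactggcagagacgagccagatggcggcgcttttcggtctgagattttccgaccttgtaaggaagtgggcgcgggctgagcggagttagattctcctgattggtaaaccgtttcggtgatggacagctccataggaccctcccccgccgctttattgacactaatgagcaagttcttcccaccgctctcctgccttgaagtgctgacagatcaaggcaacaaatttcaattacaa
Tbx1: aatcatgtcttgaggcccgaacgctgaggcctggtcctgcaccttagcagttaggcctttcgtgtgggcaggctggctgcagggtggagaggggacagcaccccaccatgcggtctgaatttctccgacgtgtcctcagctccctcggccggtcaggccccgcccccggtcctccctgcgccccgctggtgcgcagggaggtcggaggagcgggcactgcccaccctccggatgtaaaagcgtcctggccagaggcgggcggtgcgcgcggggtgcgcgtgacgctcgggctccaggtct
Tbx22: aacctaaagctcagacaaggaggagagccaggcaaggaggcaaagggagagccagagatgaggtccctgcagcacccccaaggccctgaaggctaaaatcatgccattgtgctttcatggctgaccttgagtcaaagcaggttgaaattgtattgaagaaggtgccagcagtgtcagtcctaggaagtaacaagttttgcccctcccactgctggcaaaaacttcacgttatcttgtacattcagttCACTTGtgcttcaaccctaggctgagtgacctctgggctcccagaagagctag
The HMX core CAAGTG was searched on both strands, and it is also a form of the E-box CANNTG that other factors bind. It was present in 13.6% of all 32851 mouse promoter windows of this length and in 1 of the 7 windows of the T-box genes, where it begins 3 bases before the start of *Tbx22* and reads CACTTG on the plus strand. The T-box core GGTGTGA, searched on both strands, was present in 3.98% of all windows and in 0 of the 7. A match describes letters and not a bound site.

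The libraries held between 17461544 and 18462073 counts. *Hmx1* ranged from 376 to 526 counts in WT and from 976 to 1356 in *mEC1*dup/dup libraries, a log2 fold change of 1.31 (SE 0.10, adjusted p = 0.000127 after Benjamini-Hochberg, edgeR quasi-likelihood), so the targeted gene was higher in every library labelled KI. The genotypes also differed in measures other than the T-box genes. *Xist*, transcribed from the inactive X chromosome of female cells, was nearly silent in WT (5 counts or fewer per library), whereas the *mEC1*dup/dup libraries held 12812, 19040, 18165, 2096 and 0 counts of it, in replicate order. The level of replicate 4 lay between the others, and whether that library holds RNA of a single embryo was not tested. Embryonic globins made up 18.4% to 23.3% of globin counts in WT and 32.5% to 35.6% in *mEC1*dup/dup libraries. Neither measure can be fully told apart from genotype in these libraries. Marker genes of the pinna's cell types were detected, all 7 of 7 for epidermis and for skeletal muscle, 5 of 5 for cartilage and 6 of 6 for fibroblasts. *mEC1*dup/dup replicate 1 stood apart in its inner ear and cartilage markers, as described with *Tbx18*.

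All 8 T-box genes were detected, and their levels spanned a wide range. CPM values (counts scaled to library size, by TMM) were divided by the length of the merged exons in kilobases, so that genes could be compared. In WT, *Tbx15* was the most abundant at 26.8 ± 1.25 CPM per kilobase (SD, n = 5) and made up 41.2% of the summed level of the 8 genes. *Tbx2* followed at 14.45 ± 1.08, *Tbx18* at 9.71 ± 0.789 and *Tbx1* at 9.50 ± 1.51 CPM per kilobase. *Tbx18* and *Tbx1* overlapped over the WT libraries and did not differ beyond their spread, whereas *Tbx15*, *Tbx2* and *Tbx18* were separated by gaps in their ranges. *Tbx3* reached 3.15 ± 0.373 and *Tbx4* 0.946 ± 0.0890 CPM per kilobase. *Tbx22* at 0.283 ± 0.0302 and *Tbx5* at 0.125 ± 0.0947 CPM per kilobase ended the order, and their ranges overlapped.

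The order in *mEC1*dup/dup libraries was the same except for the neighbours *Tbx1* and *Tbx18*. *Tbx15* stood at 30.7 ± 2.60 CPM per kilobase and 43.5% of the summed level. *Tbx2* (14.8 ± 1.72) overlapped with *Tbx1* (10.8 ± 2.91), and *Tbx1* with *Tbx18* (9.47 ± 2.46). *Tbx3* (3.41 ± 0.415) and *Tbx4* (0.881 ± 0.0924) were each separated from their neighbours, and *Tbx22* (0.321 ± 0.0378) overlapped with *Tbx5* (0.218 ± 0.0677). The limb genes *Tbx4* and *Tbx5* were thus the lowest of their subfamily in both genotypes. With the length of the longest transcript in place of the merged exons, *Tbx1* (12.9 CPM per kilobase in WT) came before *Tbx18* (9.79).

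**Figure D1:**
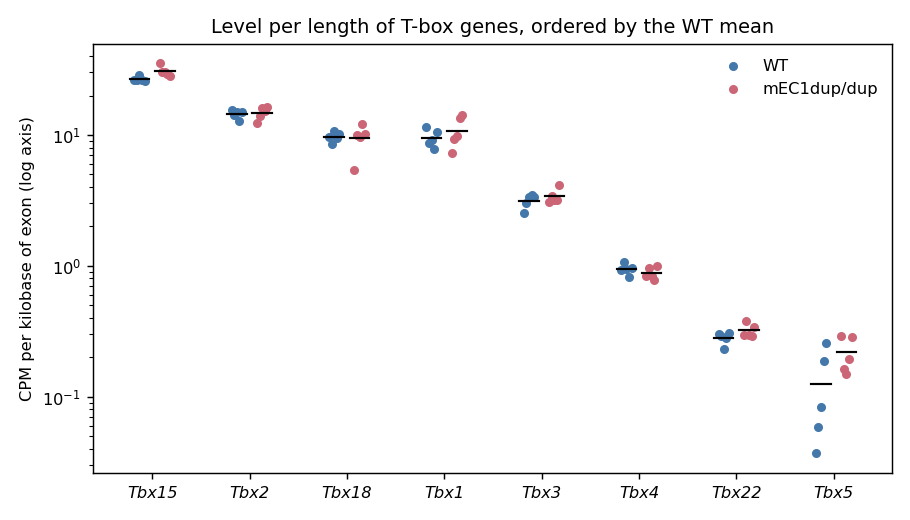
Level per length of the 8 T-box genes (CPM per kilobase of merged exon, log axis) in each of 5 WT (blue) and 5 *mEC1*dup/dup (red) libraries, with the genotype mean as a bar. *Tbx15* lies above every other gene in every library, and *Tbx22* and *Tbx5* lie at the bottom with overlapping points.

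The comparison of genotypes asked whether T-box genes respond to the extra enhancer copy and the raised *Hmx1*. None of the 8 was called changed by the quasi-likelihood test of edgeR, where a gene was called at adjusted p up to 0.05 if its log2 CPM averaged 1 or more. Over all tested genes, 0.834% were called higher and 1.81% lower in *mEC1*dup/dup libraries. 1 of the 8 genes (*Tbx15*) had an unadjusted p under 0.05, against 16.2% of all tested genes (7.1% higher and 9.08% lower). Limma-voom called 0 of the 8, beside 0.724% of all tested genes higher and 1.67% lower. The Wald test of DESeq2 called 1, *Tbx15*, and it called more genes in all, 1.99% higher and 3.16% lower. In 0 of the 8 did the genotypes separate completely, where every *mEC1*dup/dup library lay above every WT library in 2.33% of all tested genes and below in 2.75%. The point estimate was above 0 in 6 of the 8 genes, beside 48.8% of all tested genes, and the median log2 fold change was 0.15 over the 8 and 0.00 over all.

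**Figure D2:**
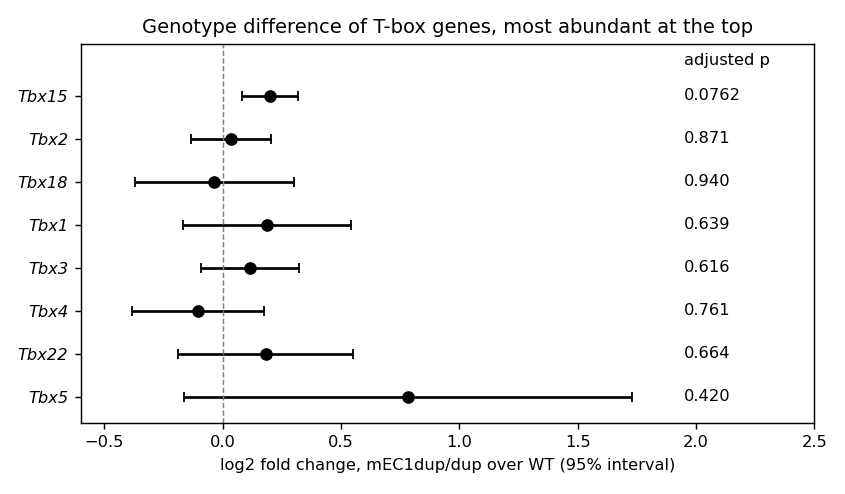
Log2 fold change of each T-box gene in *mEC1*dup/dup over WT with its 95% interval (edgeR, 5 libraries per genotype) and the adjusted p at the right, ordered by average level with the most abundant gene at the top. The interval of *Tbx15* (0.08 to 0.32) lies above 0, and those of the other 7 genes include 0.

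*Tbx15*, which patterns the dermis and the skeleton of head and limbs, had the smallest p of the 8. Its levels were 141, 141, 155, 141 and 139 CPM in WT replicates 1 to 5 and 188, 163, 161, 158 and 152 CPM in *mEC1*dup/dup replicates 1 to 5. Of the *mEC1*dup/dup libraries, 4 of 5 lay above the highest WT library, and the overlap came from WT replicate 3 and *mEC1*dup/dup replicate 5. The means were 143 ± 6.68 and 164 ± 13.9 CPM (SD, n = 5 each), a point estimate 14.7% higher. The log2 fold change was 0.20 (SE 0.05, 95% interval 0.08 to 0.32), and the adjusted p of 0.0762 missed the threshold. The Wald test of DESeq2 gave 0.20 with an adjusted p of 0.0186, which passed it. With *Xist* (log2 CPM) added to the edgeR model the estimate was 0.10 (adjusted p = 0.752). Depth was no limit for this gene, which had at least 2440 counts in each library. Its nearest upstream gene *Wars2*, a mitochondrial tryptophan tRNA synthetase that lies 1195 bases away, had a log2 fold change of 0.03 (SE 0.08, adjusted p = 0.891).

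*Tbx18*, the closest paralog of *Tbx15*, is expressed in the mesenchyme around the inner ear and in somites. Its levels were 45.9, 40.6, 50.5, 44.9 and 48.5 CPM in WT and 25.7, 47.2, 45.9, 57.3 and 48.5 CPM in *mEC1*dup/dup replicates 1 to 5. The lowest and the highest of all 10 libraries were both *mEC1*dup/dup, replicates 1 and 4, and the other libraries lay close together. The coefficient of variation was 8.12% in WT and 25.96% in *mEC1*dup/dup libraries. Its log2 fold change was -0.04 (SE 0.15, 95% interval -0.37 to 0.30, adjusted p = 0.940), and without *mEC1*dup/dup replicate 1 it was 0.11 (SE 0.08, adjusted p = 0.539).

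*Tbx1*, a regulator of the pharyngeal arches and of the otic vesicle and the gene most linked to DiGeorge syndrome, ranged more widely in *mEC1*dup/dup. Its levels were 40.7, 30.3, 31.9, 27.3 and 36.7 CPM in WT and 25.7, 32.5, 34.5, 47.5 and 49.5 CPM in *mEC1*dup/dup replicates 1 to 5. *mEC1*dup/dup replicate 1 was again the lowest of the 10 libraries, replicates 4 and 5 were the highest, and the genotypes overlapped. The log2 fold change was 0.19 (SE 0.16, 95% interval -0.17 to 0.54, adjusted p = 0.639), and the coefficient of variation 15.9% in WT and 26.9% in *mEC1*dup/dup. The neighbouring gene *Gnb1l*, 10744 bases away, had 0.29 (SE 0.14, adjusted p = 0.319).

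*Tbx22*, a gene of palate and tongue development on the X chromosome, was low. It had 29, 29, 23, 28 and 31 counts in WT, against 29, 38, 30, 30 and 35 in *mEC1*dup/dup libraries, in replicate order. The genotypes overlapped, at 1.57 ± 0.168 and 1.78 ± 0.210 CPM, with a log2 fold change of 0.18 (SE 0.17, 95% interval -0.19 to 0.55, adjusted p = 0.664). Counts of this size limit the precision, and the interval covers differences in both directions.

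*Tbx2*, a repressor that acts in limb, heart and otic development, was the second most abundant of the 8. Its levels were 79.4, 73.5, 76.3, 65.1 and 77.0 CPM in WT and 63.1, 71.2, 82.3, 79.0 and 84.6 CPM in *mEC1*dup/dup replicates 1 to 5. *mEC1*dup/dup replicate 1 was the lowest and replicate 5 the highest of all libraries. The log2 fold change was 0.03 (SE 0.08, 95% interval -0.13 to 0.20, adjusted p = 0.871). *Tbx3*, a related repressor known from limb and mammary development, had 21.0, 24.9, 27.5, 28.6 and 27.6 CPM in WT and 25.5, 28.3, 26.3, 26.3 and 33.9 CPM in *mEC1*dup/dup replicates 1 to 5. WT replicate 1 was the lowest and *mEC1*dup/dup replicate 5 the highest, with the others interleaved. Its log2 fold change was 0.11 (SE 0.10, 95% interval -0.09 to 0.32, adjusted p = 0.616).

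*Tbx4*, which is required for the hindlimb, had 71, 86, 75, 66 and 77 counts in WT, against 65, 78, 68, 64 and 81 in *mEC1*dup/dup libraries, in replicate order. The genotypes overlapped at 4.20 ± 0.395 and 3.91 ± 0.410 CPM, and the log2 fold change was -0.10 (SE 0.13, 95% interval -0.38 to 0.18, adjusted p = 0.761). *Tbx5*, which is required for the forelimb and the heart, had 3, 5, 7, 16 and 22 counts in WT, against 24, 14, 13, 17 and 25 in *mEC1*dup/dup libraries, in replicate order. WT replicates 1, 2 and 3 were below every *mEC1*dup/dup library, and WT replicates 4 and 5 lay among them. The log2 fold change of 0.78 had the widest interval of the 8 (SE 0.44, 95% interval -0.16 to 1.73, adjusted p = 0.420). The average log2 CPM of *Tbx5* and *Tbx22* was below 1, so neither could have been called.

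**Figure D3:**
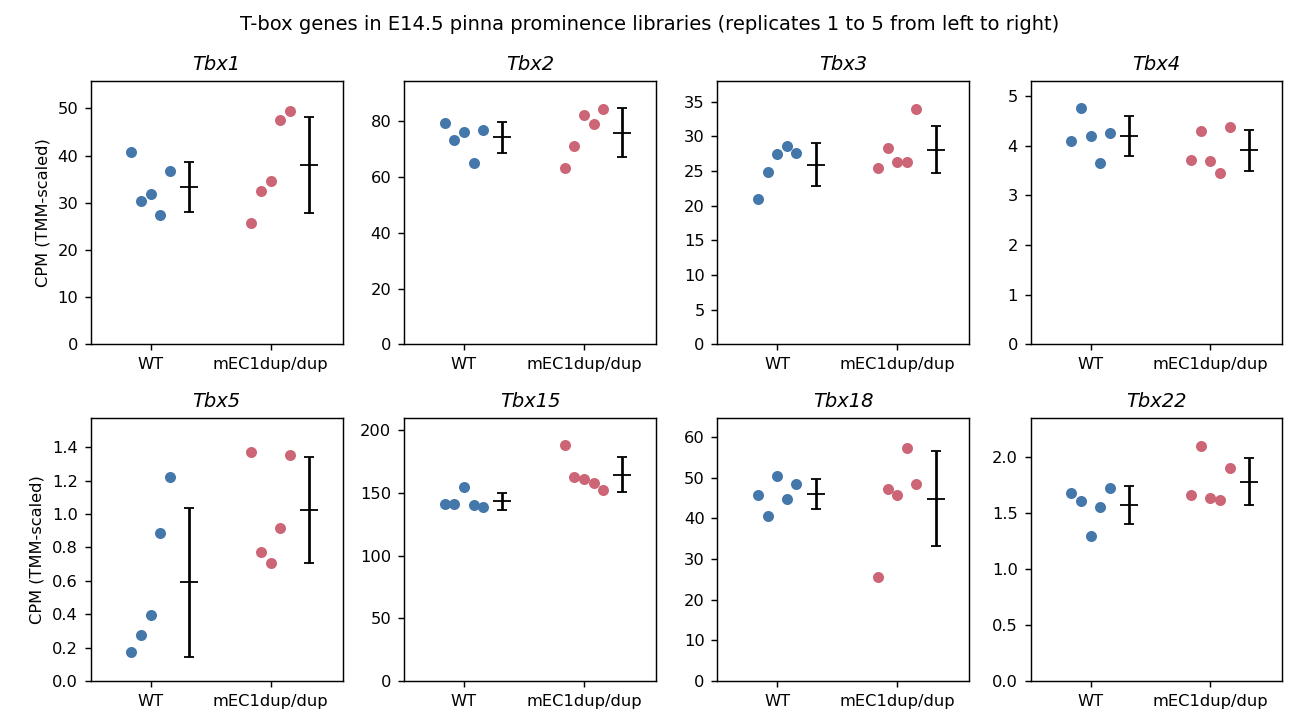
Levels of the 8 T-box genes in TMM-scaled CPM, each panel from 0, with replicates 1 to 5 of WT (blue) and *mEC1*dup/dup (red) from left to right and the mean ± SD beside each group. The genotypes overlap in every panel, *Tbx15* the least with 4 of 5 *mEC1*dup/dup points above the highest WT point, and *mEC1*dup/dup replicate 1 is lowest in *Tbx18*, *Tbx1* and *Tbx2* and highest in *Tbx15*.

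Ratios of related genes within a library do not depend on the scaling between libraries. For each of 4 pairs, an exact permutation test (two-sided) went through every way to split the libraries into 5 and 5, which allows no p below 0.00794, and the p-values were adjusted over the 4 by Benjamini-Hochberg. None of the 4 had an adjusted p of at most 0.05. The log2 ratio of *Tbx15* to *Tbx18* was 1.64 ± 0.1001 in WT and 1.91 ± 0.553 in *mEC1*dup/dup (difference 0.28, exact p = 0.341, adjusted p = 0.683, n = 5 each). *mEC1*dup/dup replicate 1 had a ratio of 2.87, and the other 9 libraries lay between 1.46 and 1.81. The log2 ratio of *Tbx4* to *Tbx5* was 2.86 ± 0.992 in WT and 1.86 ± 0.402 in *mEC1*dup/dup (difference -0.99, exact p = 0.0952, adjusted p = 0.381). It rests on *Tbx5* counts of 3 to 25 per library, and with a prior count of 0.5 in place of 2 the difference was -1.14 (exact p = 0.0952). The differences were -0.09 for *Tbx2* to *Tbx3* (exact p = 0.556, adjusted p = 0.741) and -0.01 for *Tbx1* to *Tbx22* (exact p = 0.937, adjusted p = 0.937).

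*mEC1*dup/dup replicate 1, the lowest library in *Tbx18*, *Tbx1* and *Tbx2*, was also the lowest in genes of the inner ear epithelium, and replicate 4, the highest in *Tbx18*, was the highest in them. *Oc90*, the major protein of otoconia, had 175, 178, 229, 202 and 192 CPM in WT and 39.0, 210, 204, 338 and 220 CPM in *mEC1*dup/dup replicates 1 to 5. The summed level of 6 listed otic epithelium markers (*Oc90*, *Otog*, *Otogl*, *Tecta*, *Pax2*, *Pax8*) was 208 to 264 CPM in WT, 52.1 CPM in *mEC1*dup/dup replicate 1, 442 CPM in replicate 4 and 260 to 279 CPM in the other *mEC1*dup/dup libraries. *Pax8* was at or near 0 with 8 counts over all libraries. Of the other 5, 0 were called, beside 0.834% of all tested genes higher and 1.81% lower. At an unadjusted p under 0.05, 0 of the 5 passed, beside 7.1% and 9.08%. DESeq2 called 0, beside 1.99% and 3.16%, and limma-voom 0, beside 0.724% and 1.67%. Cartilage markers summed to 4553 to 7598 CPM in WT, 2050 CPM in *mEC1*dup/dup replicate 1 and 4420 to 6039 CPM in the other *mEC1*dup/dup libraries. How much otic or cartilage tissue each dissection took along is not recorded.

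Over the 10 libraries, each T-box gene was compared with the mean log2 CPM of each of 8 marker lists, 64 relations per measure with two-sided permutation p-values adjusted over all 64. For the otic markers, Pearson's r was 0.94 for *Tbx18* (permutation p = 0.00169, adjusted p = 0.0915) and Spearman's rho 0.62 (permutation p = 0.0609, adjusted p = 0.608). Without *mEC1*dup/dup replicates 1 and 4, the farthest from the median, r was 0.46 over 8 libraries, so the relation of *Tbx18* rested on those libraries. For *Tbx1*, r was 0.76 (permutation p = 0.00508, adjusted p = 0.108), rho was 0.92 (permutation p = 0.00052, adjusted p = 0.0333), and r without the same libraries was 0.62. Of the 64 relations, the rank correlation of *Tbx1* was the only one with an adjusted p of at most 0.05 by either measure. *Tbx2* had r of 0.67 (permutation p = 0.0281, adjusted p = 0.233) and rho of 0.68 (permutation p = 0.0345, adjusted p = 0.441), with r of 0.35 without those libraries. For *Tbx15*, r was -0.56 (permutation p = 0.105, adjusted p = 0.481), rho -0.25 (permutation p = 0.490, adjusted p = 0.769), and r 0.10 without them. With each genotype's mean taken off, as a description, r with the otic markers was 0.95 for *Tbx18*, 0.79 for *Tbx1*, 0.68 for *Tbx2* and -0.83 for *Tbx15*. Outside the otic list, the largest r was 0.84 for *Tbx18* and the cartilage markers (permutation p = 0.0291, adjusted p = 0.233), with rho 0.33 (permutation p = 0.349, adjusted p = 0.760). Without WT replicate 3 and *mEC1*dup/dup replicate 1 it was -0.017, so this relation rested on those libraries too. *Tbx3* and the fibroblast markers had r of -0.80 (permutation p = 0.00286, adjusted p = 0.0915), with rho -0.85 (permutation p = 0.00307, adjusted p = 0.0982) and r of -0.71 without WT replicates 1 and 2 (-0.78 with the genotype means taken off). *Tbx15* and the melanoblast and Schwann markers had r of -0.75 (permutation p = 0.00975, adjusted p = 0.125) and rho of -0.68 (permutation p = 0.0343, adjusted p = 0.441), with r of -0.44 without WT replicate 4 and *mEC1*dup/dup replicate 1 (-0.54 with the genotype means taken off). *Tbx5* and the epidermis markers had r of -0.78 (permutation p = 0.0086, adjusted p = 0.125) and rho of -0.55 (permutation p = 0.107, adjusted p = 0.608), with r of -0.36 without WT replicates 1 and 2 (-0.70 with the genotype means taken off).

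**Figure D4:**
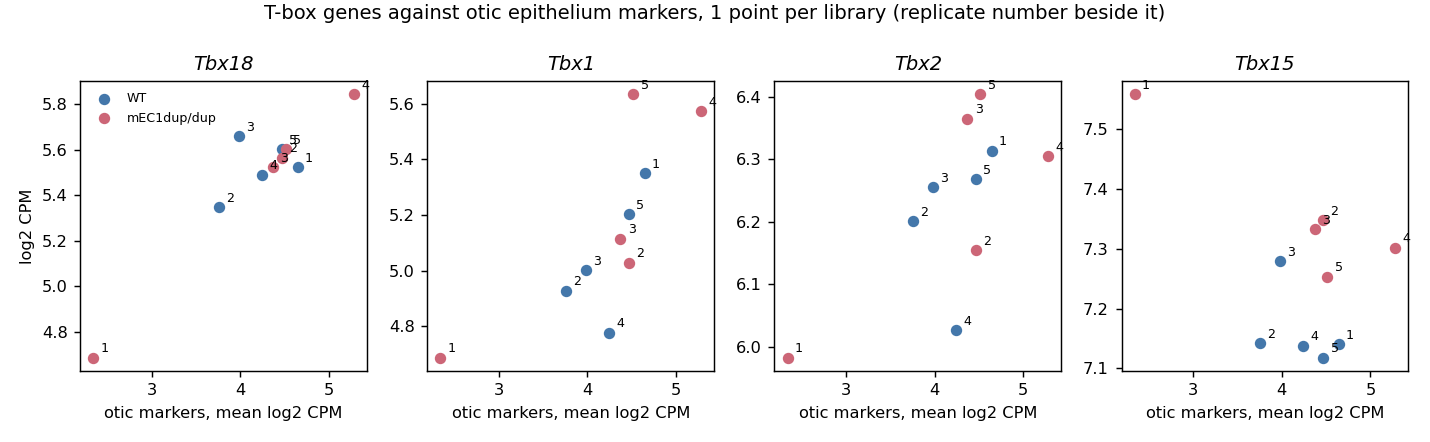
Log2 CPM of *Tbx18*, *Tbx1*, *Tbx2* and *Tbx15* against the mean log2 CPM of the tested otic epithelium markers, 1 point per library with its replicate number (WT blue, *mEC1*dup/dup red). *mEC1*dup/dup replicate 1 is far to the left in all panels, at the bottom for *Tbx18*, *Tbx1* and *Tbx2* and at the top for *Tbx15*.

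With the mean otic marker level as a covariate, chosen after seeing the data, the log2 fold change was 0.19 for *Tbx15* (SE 0.04, adjusted p = 0.0209, past the threshold, as for 0.98% of all tested genes higher and 2.27% lower), 0.17 for *Tbx1* (SE 0.11, adjusted p = 0.481), 0.03 for *Tbx2* (SE 0.06, adjusted p = 0.844) and -0.07 for *Tbx18* (SE 0.07, adjusted p = 0.617). The standard error of *Tbx18* had been 0.15 without the covariate. Without *mEC1*dup/dup replicate 1, *Tbx15* had 0.14 (SE 0.04, adjusted p = 0.0880) and *Tbx1* 0.30 (SE 0.14, adjusted p = 0.326). *Tbx1* had 0.093 without *mEC1*dup/dup replicate 4 and 0.071 without replicate 5, and *Tbx3* had 0.049 without WT replicate 1 and 0.037 without *mEC1*dup/dup replicate 5.

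The covariates that differ between the genotypes moved most of the estimates, and no T-box gene was called with either. Over all 16426 tested genes, 2 were called higher and 1 lower with *Xist*, and 0 and 0 with the globin share. A missing call in these fits therefore says nothing particular about the T-box genes. With *Xist* in the model the log2 fold change was 0.58 for *Tbx1* (SE 0.20, adjusted p = 0.404), 0.35 for *Tbx3* (SE 0.12, adjusted p = 0.404), 0.17 for *Tbx2* (SE 0.11, adjusted p = 0.687) and 1.18 for *Tbx5* (SE 0.63, adjusted p = 0.614), while *Tbx4* had -0.0036 and *Tbx22* 0.22. With the embryonic globin share it was 1.58 for *Tbx1* (SE 0.60, adjusted p = 0.898), 0.53 for *Tbx2* (SE 0.32, adjusted p = 0.898), 0.19 for *Tbx15* (SE 0.25, adjusted p = 0.936) and 0.076 for *Tbx22* (SE 0.77, adjusted p = 0.991). The standard errors with the globin share were larger than without it for each of these genes.

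Deviations from the genotype means over the 10 libraries were compared between the T-box genes as a description. *Tbx1* and *Tbx2* moved most alike (r = 0.85), followed by *Tbx1* and *Tbx18* (0.74) and *Tbx2* and *Tbx18* (0.70). *Tbx15* had negative values with *Tbx18* (-0.72), *Tbx1* (-0.71) and *Tbx2* (-0.63). *mEC1*dup/dup replicate 1 was the highest library in *Tbx15* (188 CPM) and the lowest in *Tbx18* (25.7 CPM), *Tbx1* and *Tbx2*. The negative values can therefore rest on that library, and they are not given without it. *Tbx3* and its linked neighbour *Tbx5* had r = 0.65, whereas the linked pair *Tbx2* and *Tbx4* had 0.27. These values share the libraries and their scaling. The patterns most like each T-box gene were picked as the highest values among all 16426 tested genes over 10 libraries. Whether unrelated genes would reach values of this size was not tested. The pattern most like *Tbx18* was that of *Oc90* (r = 0.98, rho = 0.90), followed by *Fbxo2* (r = 0.98, rho = 0.73). *Tbx1* was most like *Sfrp1*, a secreted Wnt antagonist (r = 0.95, rho = 0.95), and *Zfpm1*, a GATA cofactor (r = 0.95, rho = 0.92). *Tbx15* was most like *Hs2st1*, a heparan sulfate sulfotransferase (r = 0.97, rho = 0.89), and *Zfyve9* (r = 0.96, rho = 0.88). *Tbx2* was most like *E2f4* (0.94) and *Sft2d3* (0.94), *Tbx3* like *Gpr137* (0.94) and *Xbp1* (0.93), *Tbx4* like *Aldh18a1* (0.95) and *Tlcd2* (0.95), *Tbx5* like *Ptges3-ps* (0.97) and *Sync* (0.97), and *Tbx22* like *Anks6* (0.93) and *Madcam1* (0.92).

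Of 9 further T-box genes listed, 8 had a row in the table and 2 passed the filter on low counts. *Mga*, which joins a T-box to a Max-binding domain, had a log2 fold change of -0.07 (SE 0.06, adjusted p = 0.639), and *Tbx6*, a regulator of somite formation, -0.32 (SE 0.27, adjusted p = 0.625). Neither was called by edgeR, DESeq2 or limma-voom, and 0 of the 2 had an unadjusted p under 0.05. *Tbr1*, *Eomes*, *Tbx10*, *Tbx19*, *Tbx20* and *Tbx21* were too low to test, from 4 to 97 counts over all 10 libraries.

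Of 24 listed cofactors and upstream regulators of T-box factors, 20 were tested, 2 rose and 1 fell, beside 0.834% and 1.81% of all tested genes. At an unadjusted p under 0.05, 8 were higher and 2 lower, beside 7.1% and 9.08% of all tested genes. DESeq2 called 4 higher and 1 lower, beside 1.99% and 3.16%, and limma-voom 2 and 1, beside 0.724% and 1.67%. The median log2 fold change was 0.15, beside 0.00 over all tested genes, and 17 of 20 point estimates were above 0, beside 48.8%. *Tle1*, a Groucho-type corepressor, had 111, 113, 125, 114 and 119 CPM in WT and 129, 132, 126, 143 and 132 CPM in *mEC1*dup/dup replicates 1 to 5, so that every *mEC1*dup/dup library lay above every WT library. It rose by 0.18 (log2, SE 0.04, adjusted p = 0.0440, edgeR). *Hdac2*, a histone deacetylase, rose by 0.14 (SE 0.03, adjusted p = 0.0407), from 232 ± 8.37 to 256 ± 4.87 CPM, also without overlap. *Ripply1* encodes an adaptor that links T-box proteins to Tle corepressors, and it fell by 1.01 on the log2 scale (SE 0.21, adjusted p = 0.0255). Its levels were 3.06, 3.65, 2.47, 3.66 and 5.15 CPM in WT and 2.11, 1.87, 1.63, 1.29 and 2.00 CPM in *mEC1*dup/dup replicates 1 to 5, with every *mEC1*dup/dup library below every WT library. The calls were sensitive to single libraries. Of the 10 fits that leave out 1 library, *Tle1* was called in 1 (without WT replicate 3, adjusted p 0.0362 to 0.112 over the 10) and *Hdac2* in 2 (without WT replicate 4 or *mEC1*dup/dup replicate 5, adjusted p 0.0141 to 0.109). *Ripply1* was called in 5 and lost without WT replicate 2 or 5 or *mEC1*dup/dup replicate 2, 3 or 4 (adjusted p 0.0205 to 0.0795). Over the 10 fits the log2 fold change ranged from 0.16 to 0.21 for *Tle1*, 0.13 to 0.16 for *Hdac2* and -1.12 to -0.85 for *Ripply1*. With the replicate number as a block in edgeR, *Tle1* was not called (adjusted p = 0.0501), while *Hdac2* (adjusted p = 0.0388) and *Ripply1* (adjusted p = 0.0197) were. The 3 calls held with the otic markers as a covariate and were lost with *Xist* or the globin share. Nearly all calls were lost there: over all tested genes 2 were called higher and 1 lower with *Xist*, and 0 and 0 with the globin share. With *Xist* the log2 fold changes were 0.21 for *Tle1* (adjusted p = 0.388), 0.11 for *Hdac2* (adjusted p = 0.534) and -0.93 for *Ripply1* (adjusted p = 0.447). With the embryonic globin share they were 0.27 (adjusted p = 0.898), -0.05 (adjusted p = 0.967) and -2.35 (adjusted p = 0.898).

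Of 23 genes listed as targets of T-box factors, 19 were tested, 0 rose and 1 fell, beside the same 0.834% and 1.81% of all tested genes. 3 had an unadjusted p under 0.05 with a higher and 4 with a lower level, beside 7.1% and 9.08% of all tested genes. DESeq2 called 1 higher and 2 lower, beside 1.99% and 3.16%, and limma-voom 0 and 1, beside 0.724% and 1.67%. The median log2 fold change was -0.04. *Cdkn1a*, the cell cycle inhibitor p21 that TBX2 and TBX3 are known to repress, had 70.1, 61.4, 66.3, 76.4 and 86.5 CPM in WT and 61.8, 50.2, 49.5, 43.9 and 60.4 CPM in *mEC1*dup/dup replicates 1 to 5. Only WT replicate 2 and *mEC1*dup/dup replicate 1 overlapped. It fell by 0.44 on the log2 scale (SE 0.10, adjusted p = 0.0423). The call held in 4 of the 10 fits that leave out 1 library (adjusted p 0.0269 to 0.119). It was lost without WT replicate 1, 3 or 5 or *mEC1*dup/dup replicate 2, 3 or 4. Over the 10 fits the log2 fold change ranged from -0.50 to -0.37. The call held with the otic markers as a covariate. It was lost at -0.31 with *Xist* (adjusted p = 0.607) and -0.77 with the globin share (adjusted p = 0.898), as were nearly all calls over all tested genes. Markers of epidermis, a tissue that expresses *Cdkn1a*, summed to 836 to 1632 CPM in WT and 581 to 815 CPM in *mEC1*dup/dup, and 5 of the 7 fell. In WT their sum was lowest in replicate 5, where *Cdkn1a* was highest. In *mEC1*dup/dup both were highest in replicate 1 and lowest in replicate 4. Skeletal muscle markers summed to 1040 to 1629 CPM in WT and 841 to 1274 CPM in *mEC1*dup/dup, and 1 of the 7 fell. In each genotype their highest and lowest sums were in the libraries with the highest and lowest *Cdkn1a*. The part of either tissue in the value of *Cdkn1a* was not tested.

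Several T-box genes share exonic bases with genes annotated on the opposite strand. *Tbx3os1* covers 17.8% of the exonic bases of *Tbx3* and had 715 counts over the 10 libraries, against 4876 for *Tbx3*. *D030062O11Rik* covers 21.0% of *Tbx18* and had 84 counts against 8221. *Gm43050* covers 4.13% of *Tbx5* with 6 counts, and *Tbx3os2* 0.462% of *Tbx3* with 38 counts. Overlapping genes of *Tbx2* (*Gm72096*, 13.004%), *Tbx15* (*Gm65203*, 6.27%) and *Tbx1* (ENSMUSG00000132162, 1.22%) had no row in the table. Whether the counting used strand is not given in the sources used here, so reads from a gene and its antisense partner cannot be told apart, and *Tbx3* is the member for which the partner had the largest share of counts. *2610027K06Rik*, 26 bases before *Tbx2*, had a log2 fold change of -0.11 (SE 0.37, adjusted p = 0.918), and *Chmp1b2*, the neighbour of *Tbx22*, -0.01 (SE 0.06, adjusted p = 0.946).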

How the data were processed

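Bulk RNA-seq libraries of E14.5 pinna prominences (5 WT, 5 *mEC1*dup/dup) were compared. The authors deposited raw counts per gene without normalization. Reads had been trimmed with fastp, aligned to GRCm39 with STAR and counted with featureCounts. Annotation release, strand setting and handling of multi-mapped reads are not given in the sources used here, and labels and methods name different library kits (NEBNext Ultra and TruSeq). Reads carry no molecular identifiers, so intervals cover counting error and library spread only.

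Identifiers were matched to GENCODE release M39, which gave symbols to 49355 of 53465 genes (0.111% of counts lie on the rest). Genes were filtered with filterByExpr, scaled by TMM and fitted with genotype alone in edgeR version 4.0.16 (R version 4.3.3, quasi-likelihood, not robust), tested on simulated data first. Log2 CPM used a prior count of 2. SEs are the log2 fold change over the square root of F. Correlations used 100000 permutations. DESeq2 (version 1.42.0) and limma-voom (limma version 3.58.1) were alternatives, with other scalings, filters, thresholds, covariates and each library left out.

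The members, lists and tests were chosen with earlier results of these data known. Named genes were the 8 members, *Hmx1*, *Xist*, overlapping and neighbouring genes, the otic markers and the 2 most similar patterns per member. In the lists of further T-box genes, cofactors and targets, called genes were named (otherwise the 2 with the smallest p). Genes of the other marker lists were counted but not named. Other neighbouring genes were too low to test or had no row. Further markers gave these calls: skeletal muscle 1 of 7 lower, fibroblast 1 of 6 lower, pericyte 1 of 6 lower, endothelium 0 of 4, melanoblast and Schwann 0 of 5 and cartilage 0 of 5, beside 1.81% of all tested genes lower. At an unadjusted p under 0.05, 2, 3, 3, 1, 2 and 2 were lower in the same order, beside 9.08%. DESeq2 called 2, 2 and 1 of the first 3 lists lower, beside 3.16% of all tested genes. Limma-voom called 1, 1 and 1 of them lower, beside 1.67%. Both called 0 of the last 3 lists.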

Additional observations from a re-analysis of the deposited data

Results flagged for a closer look

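In 3 groups of 5 libraries a single library stood apart from the others by Dixon's criterion (a gap over the range above 0.71). For *Tbx15*, WT replicate 3 had 155 CPM where the other WT libraries had 139 to 141, and *mEC1*dup/dup replicate 1 had 188 CPM where the others had 152 to 163. For the log2 ratio of *Tbx15* to *Tbx18*, *mEC1*dup/dup replicate 1 had 2.87. 40 groups were examined, and chance alone marks about 5% of groups. *mEC1*dup/dup replicate 1 was also the library with the lowest otic epithelium markers (52.1 CPM) and cartilage markers (2050 CPM).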

How the results depend on the processing

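No T-box gene was called lower in any alternative. *Tbx15* was above 0 in all 24 alternatives. It was the 1 gene called higher by the Wald test of DESeq2, with an adjusted p of at most 0.1, and with the otic epithelium markers in the model, a setting added once the data had been seen. No fit that leaves out 1 library called any, and for *Tbx15* these gave 0.14 to 0.23 (adjusted p 0.0589 to 0.153). The cause of these changes was not tested. Directions turned for *Tbx18* with *Xist* (0.14) or the share of embryonic globin (0.36) in the model, and without *mEC1*dup/dup replicate 1 (0.11), its range over left-out libraries being -0.14 to 0.11. With the globin share, *Tbx3* had -0.16, *Tbx4* 0.12 and *Tbx5* -2.14, and *Tbx2* turned to -0.012 without WT replicate 4 and -0.0069 without *mEC1*dup/dup replicate 5 (range -0.012 to 0.095). *Tbx1* ranged from 0.071 to 0.30, *Tbx3* from 0.037 to 0.15, *Tbx4* from -0.15 to -0.049, *Tbx5* from 0.55 to 1.22 and *Tbx22* from 0.12 to 0.22. Over left-out libraries the ratio differences ranged from -0.17 to 0.013 (*Tbx2* to *Tbx3*), -1.28 to -0.73 (*Tbx4* to *Tbx5*, exact p = 0.0397 without WT replicate 4 and 0.0317 without WT replicate 5), 0.037 to 0.39 (*Tbx15* to *Tbx18*, exact p = 0.0317 without *mEC1*dup/dup replicate 4) and -0.14 to 0.093 (*Tbx1* to *Tbx22*). Of the listed cofactors, targets and further T-box genes, 4 were called, 8 with DESeq2, 0 with either covariate (*Xist*, globin share), 0 and 9 at adjusted p of at most 0.01 and 0.1, and 0 to 6 over left-out libraries. *Cdkn1a* was not called with robust estimation, nor *Hdac2* without a filter on low counts. Over all genes, the calls higher and lower numbered 137 and 297, 321 and 509 with DESeq2, 2 and 1 with *Xist*, 0 and 0 with the globin share, and over left-out libraries from 34 and 120 (without *mEC1*dup/dup replicate 3) to 179 and 476 (without WT replicate 4). With the longest transcript, WT levels per kilobase were 35.5 (*Tbx15*), 15.7 (*Tbx2*), 12.9 (*Tbx1*), 4.57 (*Tbx3*) and 1.19 (*Tbx4*). With at least 10 counts in every library *Tbx5* had no value. Depth limits *Tbx5* and *Tbx22*.

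The genotypes share replicate numbers, and the embryos were siblings from several litters, but no source says that a number marks a litter. Correlations of their deviations were -0.0558, 0.140, 0.177, 0.345 and 0.205 for replicates 1 to 5, and replicate 4 alone correlated best with its own number. With the replicate block, 10 listed genes were called, *Hdac2*, *Ripply1* and *Cdkn1a* with *Tle2*, *Tle3*, *Crkl*, *Mn1*, *Wnt5a*, *Gja1* and *Cdh1* but not *Tle1* (adjusted p = 0.0501), and 0 T-box genes (*Tbx15* 0.20, adjusted p = 0.0519), and over all genes 200 higher and 487 lower. The paired exact sign-flip test gave -0.99 for *Tbx4* to *Tbx5* (p = 0.0625, the smallest 5 pairs allow).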
